A study of Mus musculus with 28 samples.

Results

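Spleen T cells of mice given oral rapamycin were compared with those of mice injected with empty polymersomes, which carry no drug. The comparison used 9 of the 28 libraries of the series: 5 from the oral group (RO, replicates 1, 3, 4, 5 and 6) and 4 from the empty carrier group (PS, replicates 1, 3, 4 and 5). They were chosen by treatment label from the 6 RO and 4 PS libraries. RO replicate 7 was left out because its counts stood at 0 from within chromosome 12 onward in file order, at 4851 of 15772 tested genes (30.8%). Every result was computed again without RO replicate 3, the RO library with a Cd3e level under 60 CPM (counts scaled to the library total).

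The series holds 5 groups of healthy male C57BL/6J mice, 8 to 12 weeks old when treated, and CD3+ cells sorted magnetically from the spleen were sequenced. RO mice received Rapamune, an oral rapamycin product, by gavage at 1 mg rapamycin per kg. PS mice received vesicles of poly(ethylene glycol)-block-poly(propylene sulfide), the carrier polymer, under the skin at 60 mg polymer per kg. Both groups were dosed once a day for 11 days, 11 doses in all. The groups therefore differ in drug, route and carrier at once, and the parts these play cannot be told apart in this comparison. Neither group had an oral vehicle or an injected vehicle free of polymer beside it. The labels name no extraction batch or date. They do not say how many mice stand behind a library, so p-values measure the spread between these libraries.

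Rapamycin binds the immunophilin FKBP12, encoded by Fkbp1a, and the complex inhibits mTORC1, the kinase complex of Mtor and Rptor. In T cells mTORC1 activity supports ribosome production, glycolysis and lipid synthesis after activation, and its inhibition restrains clonal expansion. Antigen receptor signals and many other stimuli switch on immediate early genes, which encode short-lived transcription factors such as Fos, Jun and Egr1.

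No gene passed the test between RO and PS in all 9 libraries. Of 15772 genes tested, 0 were called higher and 0 lower (0% called) by edgeR's quasi-likelihood test at a Benjamini-Hochberg adjusted p under 0.05, and the smallest adjusted p was 0.68. At an unadjusted p under 0.05 there were 799 genes (5.07%), 343 of them higher (2.17%) and 456 lower (2.89%) in RO. The other tools gave 0 genes with DESeq2 and 1 with limma voom, the lambda light chain segment Iglv2. The median log2 fold change over all genes was 0.0006, and the median standard error was 0.21. For 11276 genes (71.5%) the 95% interval of the fold change lay within 2-fold in both directions.

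Without RO replicate 3 the intervals narrowed and a single gene was called. Of 15471 genes tested, 0 were higher and 1 was lower in RO (0.00646% called), by the same edgeR test. At an unadjusted p under 0.05 there were 784 genes (5.07%), with 258 higher (1.67%) and 526 lower (3.4%). The median standard error was 0.158, and the 95% interval lay within 2-fold for 13448 genes (86.9%). The called gene was Iglv2.

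**Figure D1:**
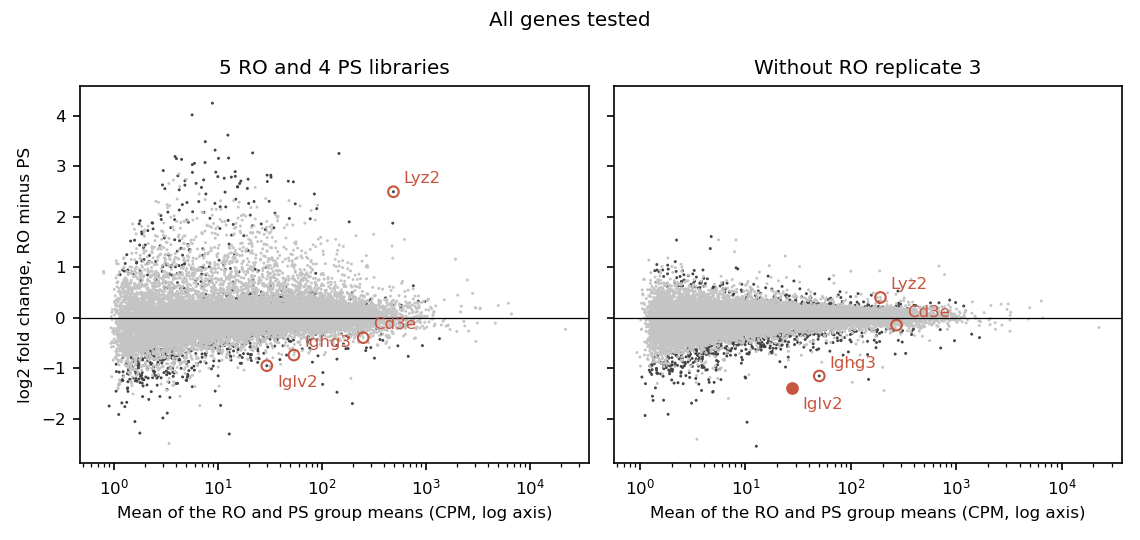
Log2 fold change of RO over PS against mean level in CPM (log axis) for every gene tested, with all 9 libraries on the left and without RO replicate 3 on the right; each point is a gene, dark points have an unadjusted p under 0.05, open circles mark named genes and the filled circle marks the called gene. On the right the points lie closer to 0, Lyz2 moves from 2.50 to 0.40, and Iglv2 at -1.40 is the gene that passed the test.

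RO replicate 3 stood apart from the other libraries, and the sort marker itself was low in it. Its Cd3e level was 46.9 CPM, against 237 to 281 CPM in the other RO libraries and 241 to 355 CPM in PS. The summed level of 22 T cell receptor complex genes was 3752 CPM in RO replicate 3, 5797 to 6780 CPM in the other 4 RO libraries and 5456 to 7388 CPM in PS. T cell genes were thus abundant in 8 of the 9 libraries. The 22 monocyte and macrophage genes, such as the lysozyme gene Lyz2, summed to 13939 CPM in replicate 3, against 1229 to 2514 CPM in the other RO libraries and 1240 to 1807 CPM in PS. For 18 NK cell genes the sums were 1284 CPM, 220 to 302 CPM and 213 to 262 CPM in the same order. The 20 neutrophil genes gave 891 CPM, 59.1 to 103 CPM and 65.4 to 104 CPM. B cell genes did not separate the library, at 7481 CPM against 7268 to 12133 CPM in the other RO and 8087 to 10103 CPM in PS. In bulk RNA, fewer cells of a type and less RNA per cell cannot be told apart. The first principal component, with 56.9% of the variance, placed replicate 3 at -119 and the other 8 libraries between -4.62 and 32.4.

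**Figure D2:**
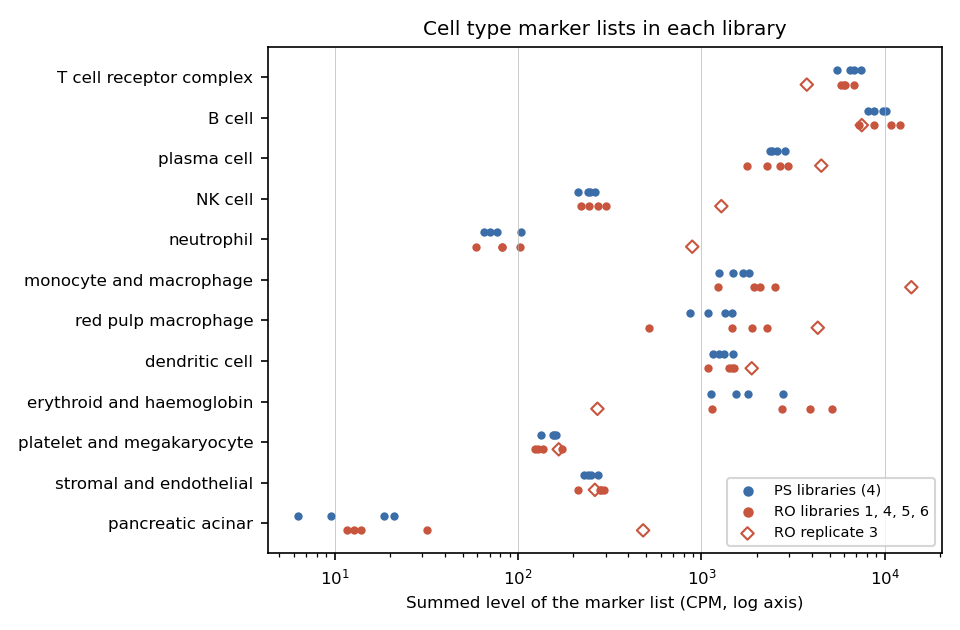
Summed CPM (log axis) of 12 marker lists in each library; dots are PS libraries above and RO libraries below, and the open diamond is RO replicate 3. The diamond lies far to the right for the monocyte and macrophage list (13939 CPM) and to the left for the T cell receptor list (3752 CPM), while the other RO libraries overlap PS in all 12 lists.

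Myeloid genes had large fold changes in all 9 libraries that shrank without replicate 3. The monocyte and macrophage list had 22 of 22 positive fold changes with a median of 1.72 on the log2 scale, and 21 of 22 with a median of 0.32 without replicate 3. None of the 22 passed in either fit. Lyz2 was 133 to 225 CPM in PS, 180 to 275 CPM in RO replicates 1, 4, 5 and 6, and 3195 CPM in replicate 3. Ace, which encodes angiotensin-converting enzyme and was chosen after its values were seen, was 1128 CPM in replicate 3 against 35.8 to 51.4 CPM in the other RO libraries and 29.2 to 35.7 CPM in PS. Pancreatic acinar genes, 18 digestive enzyme transcripts of the organ beside the spleen, summed to 481 CPM in replicate 3, 11.7 to 31.8 CPM in the other RO libraries and 6.35 to 21.1 CPM in PS.

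Iglv2 on chromosome 16 (ENSMUSG00000076940.4) encodes a variable segment of the immunoglobulin lambda light chain, made by B cells and plasma cells. Its levels in PS replicates 1, 3, 4 and 5 were 37.4, 43.2, 39.9 and 39.6 CPM. In RO replicates 1, 4, 5 and 6 they were 17.8, 16.7, 10.1 and 15.8 CPM, and RO replicate 3 stood at 35.4 CPM. All 5 RO values lay below all 4 PS values, with replicate 3 close beneath the PS range. Without replicate 3, Iglv2 fell by 1.40 on the log2 scale (SE 0.15, edgeR adjusted p = 0.00475), and in all 9 libraries the change was -0.95 (SE 0.34, adjusted p = 0.68).

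The call for Iglv2 did not hold in every setting without replicate 3. It was lost in edgeR when all 5 groups entered the fit (log2 change -1.39, adjusted p = 1) and when replicate number was a block (log2 change -1.42, adjusted p = 0.349). In that block PS replicate 3 and RO replicate 6 had no partner of the same number, so they added nothing to the difference. Leaving out any further library kept the edgeR adjusted p of Iglv2 between 0.00151 and 0.0379. Untreated libraries spanned 12.2 to 67.4 CPM (n = 7), but 5 of the 7 differed from PS in cell content, with Cd3e of 18.5 to 75.9 CPM and immunoglobulin shares of 0.866 to 2.56% of counts, against 0.528 to 0.732% in PS. They therefore give no baseline for Iglv2. Iglv1 and Iglv2 are near-identical copies, so the authors' counting could have split reads between them and the value of Iglv2 alone is uncertain. The 23 plasma cell genes summed to 2354 to 2872 CPM in PS, 1775 to 2981 CPM in RO replicates 1, 4, 5 and 6 and 4500 CPM in replicate 3, and the part of these cells in the result was not tested.

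Related immunoglobulin genes, chosen after their values were seen, did not pass with it. The close copy Iglv1 was 41.5 to 63.5 CPM in PS, 21.8 to 45.3 CPM in RO replicates 1, 4, 5 and 6, and 96.0 CPM in replicate 3, so the groups overlapped. Its log2 change was -0.05 in all 9 libraries and -0.59 (SE 0.20, edgeR adjusted p = 0.93) without replicate 3. The constant segments Iglc1, Iglc2 and Iglc3 had changes of -0.52, -0.33 and 0.02 without replicate 3, and none passed. Iglv3, a more diverged lambda variable segment, was 13.5 to 17.7 CPM in PS and 9.33 to 22.7 CPM in RO, with changes of 0.15 in all 9 libraries and 0.26 without replicate 3. The gamma heavy chain gene Ighg3 was 82.6, 63.3, 78.1 and 53.8 CPM in PS and 28.8, 68.9, 48.0, 20.5 and 26.4 CPM in RO replicates 1, 3, 4, 5 and 6. Only replicate 3 lay within the PS range. Its log2 change was -0.74 in all 9 libraries and -1.15 (SE 0.26, edgeR adjusted p = 0.93) without replicate 3, where DESeq2 gave an adjusted p of 0.00737.

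The plasma cell list, which includes Ighg3, Iglc1, Iglc2 and the gene Fkbp11 given below, did not keep one direction between the fits. It had 8 of 22 negative fold changes in all 9 libraries (median 0.10) and 17 of 22 without replicate 3 (median -0.12), with 0 called in either fit. Without replicate 3, edgeR's unadjusted p was under 0.05 and the change negative for 4 of its genes, against 3.4% of all genes. RO lay below PS without overlap for 2 of its genes, against 1.94% of all genes. Jchain, the joining chain of secreted IgM and IgA, had a log2 change of 0.52 (95% interval -0.44 to 1.48), and 0.05 (-0.65 to 0.75) without replicate 3. For Ighm, the mu heavy chain, the change was 0.19 (-0.34 to 0.73), and 0.05 (-0.41 to 0.51) without replicate 3. All immunoglobulin genes together took a median of 0.677% of counts in RO and 0.587% in PS. Their log2 shares differed by 0.11, or by -0.03 without replicate 3, with exact two-sided permutation p = 0.667 and 0.943 (adjusted 0.889 and 0.943 over 4 single values).

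**Figure D3:**
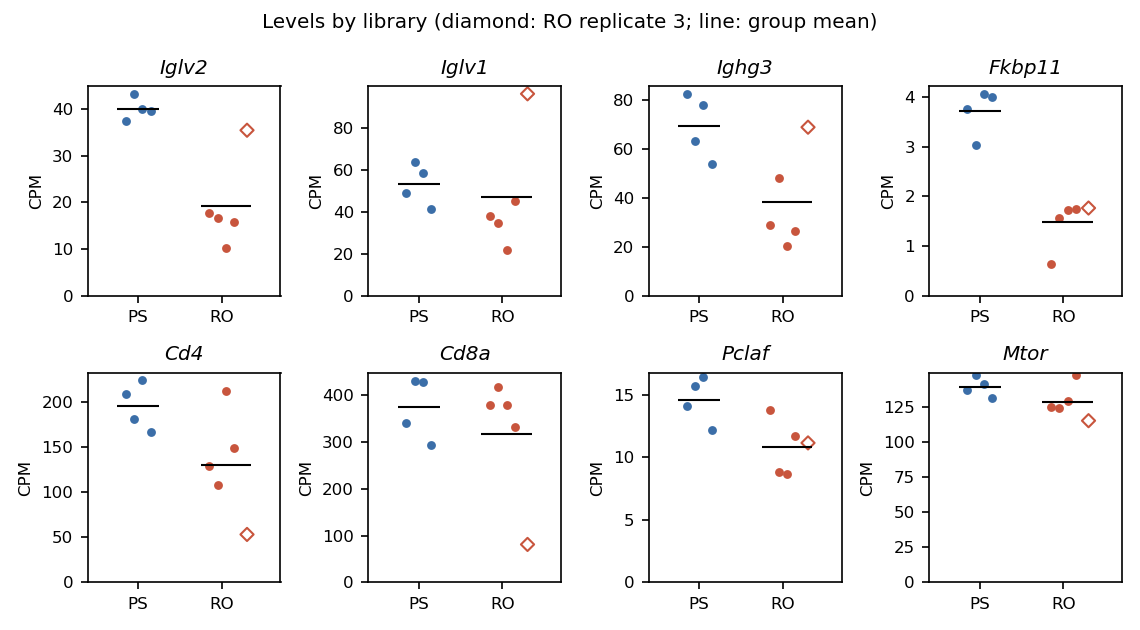
Levels in CPM of 8 genes in each PS and RO library; dots are libraries, the open diamond is RO replicate 3 and the line is the group mean over all libraries shown. Iglv2 and Fkbp11 are lower in all 5 RO libraries, at 0.64 to 1.77 CPM against 3.04 to 4.05 CPM for Fkbp11, while Mtor overlaps between groups.

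The genes with the smallest p in each direction are given as values that did not pass. Fkbp11, an endoplasmic reticulum member of the FKBP immunophilins that is abundant in secretory cells, was 3.75, 3.04, 4.05 and 3.99 CPM in PS and 0.64, 1.77, 1.57, 1.73 and 1.74 CPM in RO. The value of RO replicate 1 equals 3 counts in that library, a level that a count of 0 allows. The groups did not overlap, and the log2 change of Fkbp11 was -1.20 (SE 0.29, edgeR adjusted p = 0.68), or -1.31 without replicate 3. Slc10a1, a bile acid transporter gene known from liver, was 5.02 to 9.66 CPM in PS and 1.77 to 4.54 CPM in RO (log2 change -1.37, SE 0.30). The lowest PS library and the highest RO library differed by less than the PS libraries did among themselves. Tmem184a, Pcdhgc5, a clustered protocadherin, and Kcnd1, a potassium channel, also lay lower in all RO libraries, with log2 changes of -1.12, -1.19 and -0.87.

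On the higher side, Hipk2, a nuclear protein kinase, was 94.5, 80.7, 89.1 and 95.2 CPM in PS and 112, 111, 105, 109 and 114 CPM in RO. The RO values lay above every PS value, with a log2 change of 0.35 (SE 0.10, edgeR adjusted p = 0.68). Pes1, a ribosome biogenesis factor, was 59.1 to 62.9 CPM in PS and 66.7 to 77.8 CPM in RO (log2 change 0.31, SE 0.09). Mkrn1, a ubiquitin ligase, and Sema4c, a semaphorin, had changes of 0.49 and 1.03 with no overlap, while Zc3h11a overlapped at 0.50. Over all genes, 103 (0.653%) lay higher and 266 (1.69%) lower in RO with no overlap between groups.

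Without replicate 3, and Iglv2 aside, the smallest p-values fell to a partly different set, again with none passing. Tcof1, the treacle gene needed for ribosomal RNA transcription, was 362, 335, 372 and 368 CPM in PS and 273, 203, 271 and 276 CPM in RO replicates 1, 4, 5 and 6, and replicate 3 was 139 CPM. Its log2 change was -0.48 (SE 0.10, edgeR adjusted p = 0.93). Trp53inp2, an autophagy regulator, had a change of -0.98. Fn1, the fibronectin gene, was 73.6 to 93.8 CPM in PS, 105 to 124 CPM in the 4 RO libraries and 957 CPM in replicate 3, with changes of 0.42 without and 1.90 with that library. Tfdp2 and Ccl6 had changes of 0.40 and 0.66 without it. With replicate 3 left out, 167 genes (1.08%) were higher and 300 (1.94%) lower without overlap.

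The direct target of the drug and its partners had similar transcript levels in both groups. Mtor was 137, 148, 141 and 131 CPM in PS and 124, 115, 124, 129 and 147 CPM in RO. The groups overlapped, and the log2 change was -0.06 with a 95% interval of -0.24 to 0.11. Fkbp1a had a change of -0.04 (-0.26 to 0.18), Rheb, the GTPase that activates mTORC1, -0.06 (-0.26 to 0.14) and Rptor -0.15 (-0.36 to 0.06). Transcript levels do not report kinase activity.

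Pathway lists around mTOR contained 0 called genes in either fit. The 31 genes of the mTOR complexes and the TSC-RHEB axis had 15 positive and 16 negative changes with a median of -0.005, and 0.01 without replicate 3. The 17 mTORC1 translation substrates had 14 positive changes (median 0.15, or 0.12). Eif4ebp1, the translation repressor 4E-BP1, was 4.56 to 9.47 CPM in PS, 7.79 to 9.46 CPM in RO replicates 1, 4, 5 and 6, and 32.1 CPM in replicate 3. Its change was 1.05, and 0.26 without replicate 3. The 24 glycolysis and HIF1 target genes had medians of 0.22 and 0.07, and the 28 genes of cholesterol and fatty acid synthesis had medians of 0.09 and 0.07. Autophagy and lysosome genes (32 tested) had medians of 0.29 and 0.06.

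Cytosolic ribosomal protein genes had mostly small positive changes. Of 41 tested, 35 had positive changes (median 0.17), and 40 of 41 without replicate 3 (median 0.14), beside medians over all genes of 0.0006 and -0.0019. All 41 had 95% intervals within 2-fold in both fits, and 0 were called. Rps4x, chosen after its values were seen, was 892, 912, 888 and 866 CPM in PS and 991, 993, 1266, 1105 and 980 CPM in RO, with no overlap and a log2 change of 0.32 (SE 0.11, edgeR adjusted p = 0.68). Rps4x had the largest change of the 41 genes, and the groups overlapped for all the others. Ribosome biogenesis genes had a median of -0.06 over 26 genes, and 0.05 without replicate 3. Among them the nucleolar factor Nop56 had a change of -0.11, and -0.01 without it.

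The FK506-binding proteins were tested as a family of 11 genes, and none passed. The stress-responsive co-chaperone Fkbp5, chosen after its values were seen, was 58.7, 57.4, 57.7 and 57.7 CPM in PS and 62.5, 99.5, 70.3, 89.3 and 58.8 CPM in RO. All RO values were above the PS values, the lowest RO value only just. Its log2 change was 0.47 (SE 0.20, edgeR adjusted p = 0.68), and 0.29 without replicate 3. The family's median was -0.04, and -0.003 over 10 genes without replicate 3.

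T cell identity genes were read with RO replicate 3 beside them. The 22 T cell receptor complex genes had 20 negative changes and a median of -0.31 in all 9 libraries, and 18 negative with a median of -0.07 without replicate 3. Naive T cell and FOXO1 target genes, which guide recirculation through lymphoid tissue, had medians of -0.32 and -0.09 over 23 genes. Cd3e itself had changes of -0.39 and -0.15. Klf2, the factor that controls exit from lymphoid organs, was 479, 435, 777 and 902 CPM in PS and 471, 267, 438, 520 and 457 CPM in RO. The groups overlapped, and the changes were -0.56 and -0.46.

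Cd4 did not pass the test, with 4 of 5 RO libraries below the PS range. It was 208, 180, 224 and 167 CPM in PS and 129, 53.1, 108, 212 and 148 CPM in RO replicates 1, 3, 4, 5 and 6. RO replicate 5 lay within the PS range, and the log2 change was -0.55 (95% interval -1.20 to 0.09), or -0.37 (-0.78 to 0.04) without replicate 3. Cd8a had changes of -0.21 (-1.02 to 0.60) and 0.03 (-0.23 to 0.29). The log2 ratio of Cd4 to Cd8a ran from -1.95 to -0.61 in RO and from -1.25 to -0.71 in PS. The mean ratio differed by -0.29 (exact two-sided permutation p = 0.357, adjusted 0.714), and by -0.45 without replicate 3 (exact p = 0.171, adjusted 0.381).

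Regulatory and effector genes did not pass either. Foxp3, the regulatory T cell factor, was 37.8, 20.2, 22.98 and 19.5 CPM in PS and 14.4, 14.0, 23.1, 43.7 and 27.99 CPM in RO. The ranges overlapped, and the log2 change was 0.02 with an interval of -0.74 to 0.77. The regulatory T cell list had 11 of 16 positive changes (median 0.16) and 13 of 16 without replicate 3 (median 0.21). Effector and cytotoxic genes had medians of 0.28 and 0.03 over 26 genes. Gzmb, which encodes granzyme B, had changes of 0.42 and -0.26.

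The 23 immediate early AP-1 and EGR genes had the lowest list median without replicate 3, and 0 of them passed the test in either fit. In all 9 libraries 17 of 23 changes were negative with a median of -0.47, and without replicate 3 22 of 23 with a median of -0.60. Unadjusted p was under 0.05 and the change negative for 9 genes, against 2.89% of all genes, and for 11 without replicate 3, against 3.4%. All RO libraries lay below all PS libraries for 7 of 23 genes, against 1.69% of all genes, and for 9 of 23 without replicate 3, against 1.94%. The genes of this list are induced together, so they are not independent of each other.

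The immediate early genes given one by one below were chosen after their values were seen. The AP-1 subunit genes varied widely between RO libraries. Fosb was 405, 254, 321 and 227 CPM in PS replicates 1, 3, 4 and 5 and 143, 18.7, 6.997, 95.4 and 197 CPM in RO replicates 1, 3, 4, 5 and 6. Jun was 261, 218, 367 and 221 CPM in PS and 167, 35.4, 15.7, 147 and 208 CPM in RO. Fos was 185, 112, 174 and 116 CPM in PS and 73.9, 44.9, 9.57, 53.1 and 104 CPM in RO. In each of these genes RO replicate 4 was the lowest, RO replicate 6 was the highest RO library, and the groups did not overlap. The log2 changes were -1.70 (SE 0.75) for Fosb, -1.20 (SE 0.61) for Jun and -1.32 (SE 0.50) for Fos, each with an edgeR adjusted p of 0.68. RO replicate 4 also had the highest erythroid sum, 5144 CPM against 1125 to 2775 CPM in PS, and its part in these values was not tested. Junb lay at 283 to 445 CPM in PS and 118 to 238 CPM in RO, with a change of -0.65 (SE 0.22).

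Egr1, a zinc finger factor induced through serum response elements, was 162, 177, 320 and 167 CPM in PS and 108, 15.4, 38.3, 83.4 and 123 CPM in RO. It did not overlap, with a log2 change of -1.48 (SE 0.50, edgeR adjusted p = 0.68). Zfp36, which encodes the mRNA decay factor tristetraprolin, was 405, 342, 492 and 407 CPM in PS and 290, 147, 117, 258 and 340 CPM in RO. Its highest RO value lay just under its lowest PS value, with a change of -0.80 (SE 0.27). Ier2 was 177 to 262 CPM in PS and 99.5 to 163 CPM in RO, with a change of -0.61 (SE 0.17).

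The direction of Klf4 and Atf3 depended on replicate 3. Klf4 was 19.5 to 26.7 CPM in PS, 11.4 to 18.8 CPM in RO replicates 1, 4, 5 and 6, and 122 CPM in replicate 3, so that its log2 change was 0.82 with that library and -0.60 (SE 0.16) without it. Atf3 had changes of 0.18 and -1.23 in the same way. Klf6 kept its direction, with changes of -0.20 and -0.49. Dusp1, a phosphatase that switches off MAP kinases, was 163, 139, 174 and 139 CPM in PS and 97.4, 139, 28.99, 139 and 101 CPM in RO, with changes of -0.53 and -0.74. Without both RO replicates 3 and 4, a choice made after seeing the data, 23 of 23 changes were negative with a median of -0.47, and 9 of 23 genes were lower without overlap, against 2.32% of all genes.

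**Figure D4:**
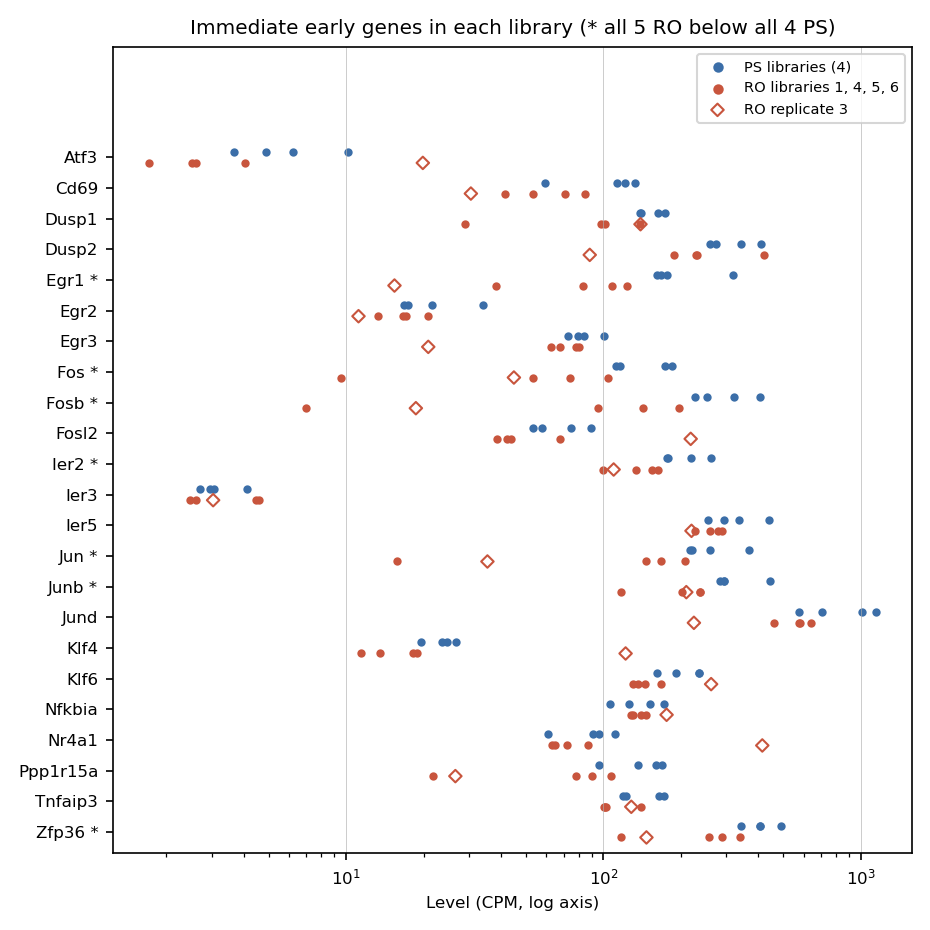
Level in CPM (log axis) of the 23 immediate early genes in each library; dots are PS libraries above and RO libraries below, the open diamond is RO replicate 3, and an asterisk marks the 7 genes in which all 5 RO libraries lie below all 4 PS libraries. RO replicate 4 is the lowest library for Fosb at 6.997 CPM, and PS values for Fosb lie between 227 and 405 CPM.

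Levels in the other groups are given with no test. Of 7 untreated libraries, 5 held little T cell RNA, with Cd3e of 18.5 to 75.9 CPM against 241 to 355 CPM in PS, and the other 2 had 401 and 471 CPM. The untreated range for Lyz2 was 141 to 3721 CPM, against 133 to 225 CPM in PS. The part of this cell content in the untreated levels was not tested, so they are no matched baseline. Levels in every group were taken for 12 of the 23 immediate early genes, most of them chosen after their values were seen. In these 12, the untreated libraries lay below every PS value for 5 (Egr1, Fosb, Ier2, Jun and Zfp36) and overlapped PS for the other 7. No share over all genes was computed beside this count, so it does not describe the list. Fosb was 5.31 to 35.5 CPM and Egr1 14.4 to 77.6 CPM in untreated libraries. Fos overlapped PS at 6.31 to 174 CPM, as did Junb at 127 to 344 CPM and Dusp1 at 18.7 to 258 CPM. RO overlapped the untreated libraries in all 12 genes. Mice injected with rapamycin in 0.2% carboxymethylcellulose spanned 5.59 to 288 CPM of Fosb (n = 6), and those given rapamycin-loaded polymersomes spanned 5.77 to 883 CPM (n = 5). Both ranges overlapped PS and RO.

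The upstream sequences of a pair of these genes are shown because they carry a classical motif of immediate early control, the CArG box bound by serum response factor or the cAMP response element (letters TGACGTCA). They are the 250 bases before the start, credited to RefSeq on build GRCm38.p6, minus strand, at chr7:28379229-28379478 for Zfp36 and chr17:26508473-26508722 for Dusp1. Capitals mark the CArG box, 58 bases before the start of Zfp36, and the response element, 143 bases before that of Dusp1.
Zfp36: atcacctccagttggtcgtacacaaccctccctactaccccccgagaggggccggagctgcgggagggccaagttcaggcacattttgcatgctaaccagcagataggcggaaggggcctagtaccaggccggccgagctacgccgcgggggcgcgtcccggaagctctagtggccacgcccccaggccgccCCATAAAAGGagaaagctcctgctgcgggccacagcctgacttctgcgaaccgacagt
Dusp1: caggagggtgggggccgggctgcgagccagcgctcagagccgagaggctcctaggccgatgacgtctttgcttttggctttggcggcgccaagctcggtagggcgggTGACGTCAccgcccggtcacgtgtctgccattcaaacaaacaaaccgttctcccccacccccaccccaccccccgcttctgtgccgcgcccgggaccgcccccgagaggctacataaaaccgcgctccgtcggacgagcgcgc
Both strands were searched in windows of that length, and 19 of the 23 list genes had one. Egr1 and Ier2 were among those without a window. Only these 2 letter patterns within 250 bases were searched, so variant or more distant elements would be missed. A CArG box was found in 2 of the 19 (Egr2 and Zfp36) and in 1.62% of 27025 genes with a window. The response element was found in 2 of the 19 (Dusp1 and Ppp1r15a) and in 1.77% of all. A match is a description of letters and says nothing about binding in these cells.

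Of the proliferation lists, those of mitosis and histone genes had mostly negative changes, and no gene of any passed. The mitosis list had 22 of 27 negative changes (median -0.16), and 24 of 27 without replicate 3 (median -0.19). Replication-dependent histone genes, transcribed in S phase, had 21 of 23 negative changes (median -0.35), and 22 of 23 without replicate 3 (median -0.34). The S phase and DNA replication list had 18 of 33 negative changes (median -0.03), and 16 of 33 without replicate 3 (median 0.01). Pclaf, the PCNA clamp associated factor, was 14.1, 15.7, 16.4 and 12.2 CPM in PS and 13.8, 11.2, 8.85, 8.66 and 11.7 CPM in RO. RO replicate 1 lay within the PS range, and the change was -0.37 (95% interval -0.76 to 0.02). The change became -0.44 (-0.81 to -0.07, edgeR adjusted p = 0.93) without replicate 3, and the groups still overlapped. The proliferation marker Mki67 had a change of -0.14 and Top2a, a DNA topoisomerase, -0.07, or -0.22 and -0.17 without replicate 3.

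**Figure D5:**
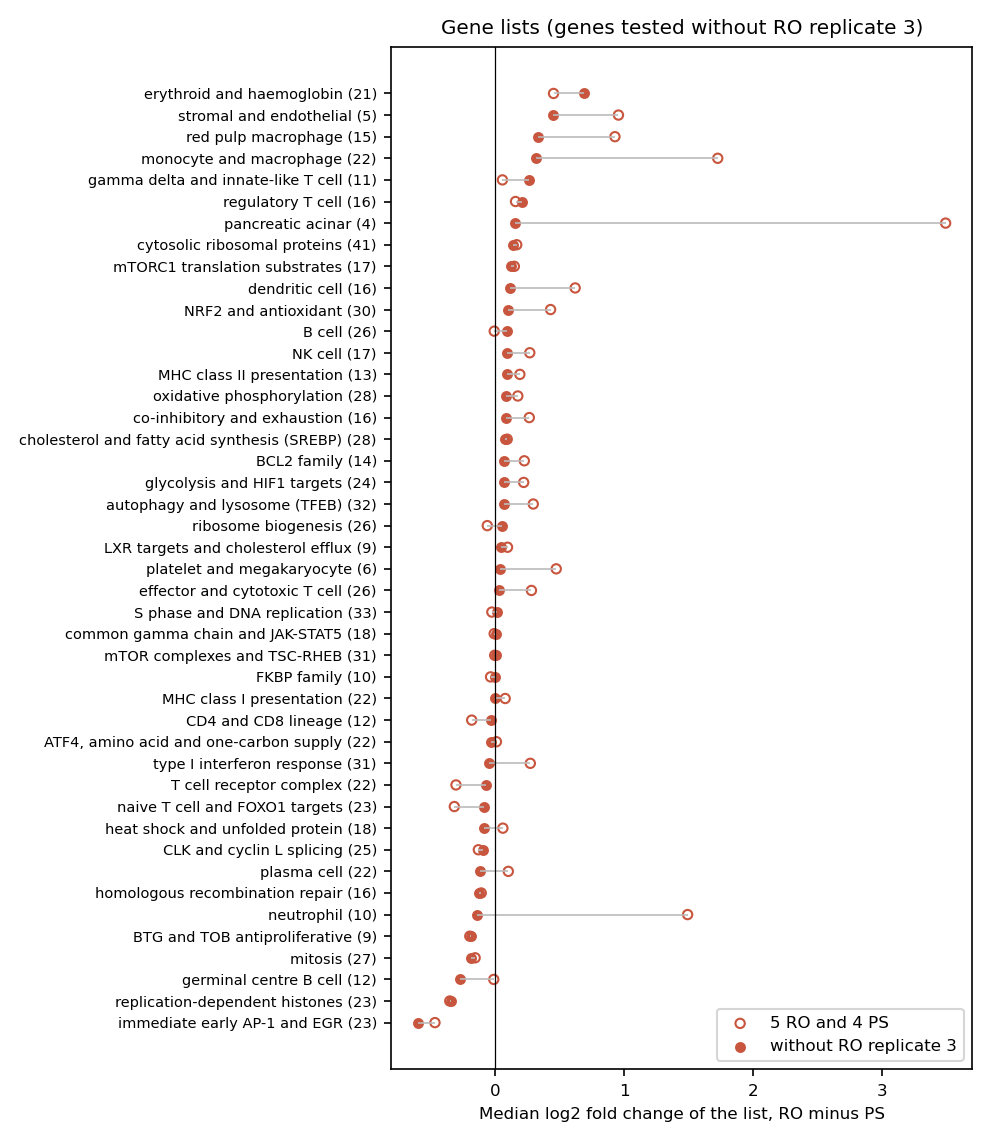
Median log2 fold change of RO over PS for 44 gene lists, with all 9 libraries (open circles) and without RO replicate 3 (filled circles); the number of genes tested without replicate 3 is in parentheses. Acinar, monocyte and macrophage and neutrophil lists shift most between fits, and the immediate early list has the lowest median in both, at -0.47 and -0.60.

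Pclaf and Syt6 can be set beside the injected drug groups as levels, with no test. Pclaf ran from 8.66 to 13.8 CPM in RO, from 3.90 to 7.37 CPM with injected rapamycin and from 1.94 to 4.22 CPM with loaded polymersomes. The synaptotagmin gene Syt6 was 1.27 to 3.83 CPM in RO and 0.67 to 2.02 CPM in PS (log2 change 1.13, SE 0.44, edgeR adjusted p = 0.68). It was 0.147 to 23.9 CPM (median 16.97) with injected rapamycin, a range that holds every RO and PS value, and 12.4 to 69.4 CPM (median 33.7) with loaded polymersomes. The injected rapamycin group includes a library with a Cd3e level of 9.58 CPM. Dose per kg was the same in the 3 drug groups, and drug exposure in blood or spleen was not analysed here.

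Antiproliferative BTG and TOB genes, which limit cell cycle entry, had 8 of 9 negative changes in both fits (medians -0.20 and -0.19). Btg1, chosen after its values were seen, was 1566, 1377, 1696 and 1623 CPM in PS and 1310, 748, 1081, 1303 and 1271 CPM in RO. The groups did not overlap, and the log2 change was -0.41 (SE 0.14, edgeR adjusted p = 0.68), or -0.33 without replicate 3. Tob1 had changes of -0.21 and -0.19 with overlapping groups.

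Red cell transcripts varied between libraries in both groups. The erythroid list had 20 of 21 positive changes (median 0.45), and 21 of 21 without replicate 3 (median 0.68), with 0 called. Haemoglobin genes took 0.0769 to 0.233% of counts in PS and 0.0115 to 0.44% in RO, with the lowest share in replicate 3. Their log2 shares differed by -0.08 (exact two-sided permutation p = 0.96), and by 0.78 without replicate 3 (exact p = 0.257). Hba-a1, an alpha globin gene, was 312 to 934 CPM in PS and 40.6 to 1630 CPM in RO, so the groups overlapped. Spleen cells had been treated with red cell lysis buffer before the sort.

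Interferon, antigen presentation and mitochondrial measures did not separate the groups. The type I interferon list had medians of 0.27 and -0.05 over 31 genes, and Xaf1, one of its targets, had changes of -0.14 and -0.26. The 22 MHC class I genes had medians of 0.08 and -0.01, and the 13 MHC class II genes 0.19 and 0.09. Mitochondrially encoded genes took 0.889 to 1.79% of counts in PS and 1.19 to 1.72% in RO, with a log2 difference of 0.26 (exact two-sided permutation p = 0.278, adjusted 0.714). Across the 44 lists, 0 of 849 listed genes tested passed in all 9 libraries and 0 of 839 without replicate 3.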

How the data were processed

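RNA of 9 mouse libraries was compared. The deposited values are expected counts per gene, of which a share in each library is fractional. Per the submitters' processing notes, the authors worked on build GRCm39. The tools named there are STAR 2.7.5a, Trimmomatic 0.39, Cuffdiff and Cufflinks 2.1.1. The counting tool, gene annotation and use of strand were not given in the sources used here, so overlapping or antisense genes may share reads.

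Counts were rounded to whole numbers. Of 55413 gene IDs, 52082 matched GENCODE M21 (GRCm38), used for symbols and chromosomes only. Totals were 5926263 to 9139948 in PS and 4721526 to 14153508 in RO, and 0 counts allows up to 3 counts, 0.212 to 0.635 CPM, for counting error only. No pair of libraries was a repeat, since chi-square per gene was at least 3.27.

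Genes passing filterByExpr were tested with edgeR 4.0.16 (robust quasi-likelihood, TMM, two-sided) in R 4.3.3, adjusted by Benjamini-Hochberg over all genes tested. Only RO and PS entered. Overlap between groups was judged on CPM over the library total, without the TMM scaling that the fold changes carry. The fits were tested on simulated data. Alternatives included DESeq2 1.42.0, limma 3.58.1 voom, a replicate block, other filters and scalings, a myeloid covariate and leaving out each library. Group shares and the Cd4 to Cd8a ratio were compared by exact permutation, where the smallest possible p is 0.00794 with 9 libraries and 0.0286 with 8.

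Genes were named by rule: up to 15 called genes per direction (10 without replicate 3) averaging at least 2 CPM, or the 5 with the smallest p where fewer than 3 passed, plus 32 fixed genes. A further 23 genes, among them the immediate early genes given one by one, were chosen after their values were seen. A few of the genes so named are not reported here. Members and lists were chosen with earlier results of these data known. The symbols Scart2, Ero1a and Ahsp (3 of 914 listed) matched no ID.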

Additional observations from a re-analysis of the deposited data

Results flagged for a closer look

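Values set apart from the rest of their group were sought in 148 groups of values, by the gap to the nearest library as a share of the group's range. Chance marks about 1 in 20 independent groups, but these groups come from the same libraries. They also include Cd3e, by which RO replicate 3 was singled out, and genes chosen after their values were seen. The chance rate is therefore no yardstick for the count. There were 22, of which 14 were in RO replicate 3. In that library the high values were Lyz2 at 3195 CPM, Ace at 1128 CPM, Fn1 at 957 CPM, Klf6 at 262 CPM, Ccl6 at 220 CPM, Klf4 at 122 CPM, Eif4ebp1 at 32.1 CPM, Atf3 at 19.9 CPM, S100a8 at 13.1 CPM and Sema4c at 8.76 CPM. Its low values were the T cell genes S1pr1 at 95.7 CPM, Cd8a at 81.0 CPM, Cd3e at 46.9 CPM and Ccr7 at 39.7 CPM.

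Among PS libraries, replicate 4 was high in Junb at 445 CPM, Egr1 at 320 CPM and Ccr7 at 290 CPM. PS replicate 5 was low in Mki67 at 89.8 CPM, Tmem184a at 5.70 CPM and Slc10a1 at 5.02 CPM. The remaining values were Fkbp11 at 0.64 CPM in RO replicate 1 and Mybl1 at 1.999 CPM in RO replicate 4.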

How the results depend on the processing

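The count of genes called between RO and PS was 0 in all 9 libraries, and stayed 0 with DESeq2 size factors, no low-count filter, DESeq2, all 5 groups in the fit and library sizes that omit immunoglobulin, haemoglobin and mitochondrial genes. It became 1 with limma voom and 1 with a covariate from the monocyte and macrophage list, both Iglv2, and 2 without RO replicates 3 and 4 (Ighg3 and Iglv2), a choice made after seeing the data. Leaving out 1 library gave 0 to 1, with 1 only without RO replicate 3. Without replicate 3, the count of 1 became 2 with DESeq2 (Ighg3 and Iglv2) and 0 with all 5 groups in the fit, and leaving out a further library gave 1 to 2, with Ighg3 added without RO replicate 4 and Slc4a1 without RO replicate 5. The count of immediate early genes lower without overlap was 7 to 10 of 23 on leaving out 1 library. Over all genes tested, the share lower without overlap ran from 1.93% to 5.19% in the same settings, against 1.69% in all 9 libraries. The count of 10 came without PS replicate 3, where the share over all genes was 3.03%. The cause of these changes was not tested.

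A replicate block gave 0 called genes in 9 libraries, with 605 at an unadjusted p under 0.05 against 799. Without replicate 3 the block called 1 gene, the predicted gene Gm20716 in place of Iglv2. PS replicate 3 and RO replicate 6 had no partner there, so the difference rested on the shared numbers alone. Residuals of same-numbered libraries correlated at -0.07, 0.05, 0.08 and -0.15, and no RO library correlated best with the PS library of its own number. So few values cannot settle whether the numbers pair the libraries, and the labels do not state it. Within the shared numbers the block gave log2 differences of -0.31 for the Cd4 to Cd8a ratio, and 0.01, -0.26 and 0.21 for the immunoglobulin, haemoglobin and mitochondrial shares, where 4 pairs cannot give an exact permutation p under 0.125. With the block the sign turned for Foxp3 (-0.10), Cd79a (-0.0704), Atf3 (-0.33) and Hba-a1 (-0.19).

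Of 1252 pairs of a named gene and a setting, 52 had the other sign, in 21 of 70 genes, none of which had passed. With the myeloid covariate these were Cd3e (0.0057), Ccr7 (0.0765), Cd8a (0.18), Il7r (0.25), S1pr1 (0.0155), Nop56 (0.0257), Iglc3 (0.056), Ighm (-0.0112), Igkc (-0.0633), Jchain (-0.11), Gzmb (-0.33), Ncr1 (-0.0316), S100a8 (-0.18), Klf4 (-0.79) and Atf3 (-1.39). With limma voom they were Foxp3 (-0.15), Gzmb (-0.60), Klf4 (-0.51), Atf3 (-1.23) and Iglc3 (0.18). Without RO replicates 3 and 4 they were Il7r (0.0363), Nop56 (0.0318), Iglc3 (0.0554), Gzmb (-0.32), Klf4 (-0.50) and Atf3 (-1.08). On leaving out 1 library the log2 changes ran from -0.33 to 0.0287 for Cd8a, -0.28 to 0.27 for Foxp3, -0.10 to 0.003 for Fkbp1a, -0.27 to 0.10 for Il7r, -0.26 to 0.64 for Gzmb, -0.0653 to 0.20 for Cd79a, -0.60 to 1.07 for Klf4, -1.23 to 0.49 for Atf3, -0.59 to 0.15 for Iglv1, -0.52 to 0.0273 for Iglc1 and -0.27 to 0.0224 for Iglc3. The haemoglobin share ran from -0.54 to 0.78, positive without PS replicate 5, RO replicate 3 or RO replicate 5, and the immunoglobulin share from -0.0255 to 0.25, negative without RO replicate 3. With 5 against 4 libraries and a median standard error of 0.21, small changes could not be told from none.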
